A study of Mus musculus with 6 samples.

Results

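The 10 genes described here encode TGF-beta ligands (Tgfb1, Tgfb2, Tgfb3), their receptors (Tgfbr1, Tgfbr2, Tgfbr3), the signal transducer Smad3, the feedback inhibitors Smad7 and Skil, and the latent TGF-beta binding protein Ltbp4. They were taken by symbol from the 52636 genes of the deposited count table, and each matched 1 gene identifier. Levels were compared between KLRG1-positive and KLRG1-negative innate lymphoid cells (ILCs) of mouse lung, with 3 RNA sequencing libraries per population. Both populations came from wild-type C57BL/6 mice that carried the 4get reporter, a green fluorescent protein gene placed at Il4 that marks cells able to make interleukin-4. All mice had been given recombinant interleukin-33, an alarmin that activates group 2 ILCs (ILC2), 500 ng injected into the peritoneum for 4 days, and tissue was taken on day 5. The cells lacked lineage markers, carried CD90 and were sorted to a stated purity above 90%, as KLRG1-high cells, given as ILC2 in the cell type label, and as KLRG1-negative cells, given there as ILC; the sample titles call both ILC. Whether each library stands for its own mouse is not given in the labels; the p-values reflect the scatter among these libraries, and that scatter may be technical.

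TGF-beta is secreted in a latent form, held by its own propeptide, and latent TGF-beta binding proteins tether that complex to fibrillin fibres of the extracellular matrix. Integrins and proteases release the active ligand, which binds the kinase receptor TGFBR2; this recruits and activates TGFBR1, which phosphorylates SMAD2 and SMAD3. SMAD7 blocks the activated receptor and the SKIL protein (SnoN) represses SMAD target genes, and both genes are themselves induced by the pathway. In lung, fibroblasts make and respond to TGF-beta, and in ILCs and T cells the pathway is known to shape development, tissue residence and the expression of integrins.

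The 6 libraries held 17323004 to 23946073 assigned counts. Klrg1, the gene behind the sort, stood at 1485, 1786 and 1327 CPM (the usual counts-per-library scale, with library sizes adjusted by TMM) in KLRG1-positive and at 13.1, 193 and 73.2 CPM in KLRG1-negative libraries. The summed level of 12 ILC2 markers was 8069 to 9739 CPM in KLRG1-positive, against 1648 to 4168 CPM in KLRG1-negative libraries. Klrg1 is 1 of the 12, so part of that difference follows from the sort itself. Of the 12, 8 were higher in every KLRG1-positive library, and Il7r, Icos, Areg and Il17rb overlapped. Each of the 12 was detected in both populations. Against the label of purified ILCs, the KLRG1-negative libraries also held transcripts of fibroblasts, T cells and B cells. The 10 fibroblast markers summed to 18.6 to 52.1 CPM in KLRG1-positive, against 4150 to 11633 CPM in KLRG1-negative libraries, and 9 of the 10 were lower in every KLRG1-positive library, Pdgfrb being the exception. The 10 T cell markers summed to 319 to 403 CPM in KLRG1-positive, against 1306 to 4942 CPM in KLRG1-negative libraries. Of these, 8 were lower in every KLRG1-positive library, and Cd3g and the barely detected Cd4 overlapped. Cd3g alone averaged 237 CPM of a mean T cell sum of 368 CPM in KLRG1-positive libraries. The 8 B cell markers summed to 133 to 378 CPM in KLRG1-positive, against 658 to 4655 CPM in KLRG1-negative libraries. Marker sums of natural killer cells and ILC1 (116 to 435 CPM in KLRG1-positive, 483 to 1576 CPM in KLRG1-negative libraries) and of mural cells (0.0444 to 5.29 CPM in KLRG1-positive, 21.5 to 36.5 CPM in KLRG1-negative libraries) were also lower in all KLRG1-positive libraries. The mural marker Rgs5 was at 0 in all KLRG1-positive libraries and in KLRG1-negative libraries 2 and 3. In the latter 2 libraries, Des alone gave 29.0 and 27.9 CPM of mural sums of 36.5 and 33.0 CPM. Those of endothelial, epithelial, macrophage and platelet markers overlapped. Mast cell markers summed to 293 to 450 CPM in KLRG1-positive libraries, against 131 to 244 CPM in KLRG1-negative libraries, but differed in direction. Kit alone averaged 324 CPM of a mean mast cell sum of 383 CPM in KLRG1-positive libraries. Kit and Cpa3 were higher in every KLRG1-positive library, Mcpt8 was lower in every one, and Fcer1a and Ms4a2 overlapped. In such bulk samples, fewer cells of a type and less RNA per cell cannot be told apart.

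Of the 10 genes, 1 passed the test: Ltbp4 was lower in KLRG1-positive cells, and 0 were higher (edgeR quasi-likelihood test, Benjamini-Hochberg adjusted p below 0.05). Among all 15197 tested genes, 1.21% were called lower and 0.125% higher. At an unadjusted p below 0.05, 3 of the 10 lay lower and 0 higher, beside 11.5% and 4.19% of all tested genes. DESeq2 called 2 of the 10 lower, Ltbp4 and Tgfbr3, and 0 higher, beside 9.06% and 2.28% of all tested genes. With the replicate number of the libraries as a block, Ltbp4 was again the 1 gene called, and 0.349% of all tested genes were called lower and 0% higher. All 10 genes passed the filter on low counts, Tgfb2 and Tgfbr3 through their KLRG1-negative libraries alone, so that those 2 entered the test because they were high there. The populations did not overlap for 4 genes: the KLRG1-positive libraries were all above for 1, Tgfb1, and all below for 3, Tgfb2, Tgfbr3 and Ltbp4, beside 9.46% and 15.2% of all tested genes. The other 6 genes overlapped between the populations. The median log2 fold change (KLRG1-positive over KLRG1-negative) was -0.66 over the 10 genes and -0.05 over all tested genes.

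**Figure D1:**
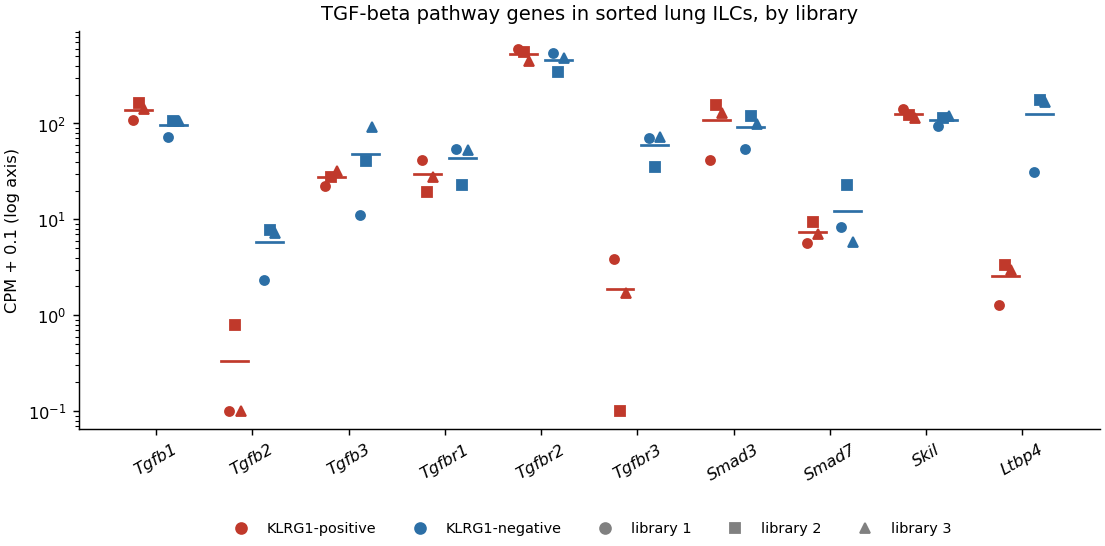
Levels of the 10 genes in the 3 KLRG1-positive (red, left of each pair) and 3 KLRG1-negative (blue, right) libraries, as CPM + 0.1 on a log axis; each symbol is 1 library, its shape gives the library number, and bars are group means. Tgfb2, Tgfbr3 and Ltbp4 are separated widely, Tgfb1 narrowly, and the other 6 genes overlap.

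The promoters of Tgfb1, Tgfb2 and Ltbp4 are shown because these are the genes whose populations did not overlap and for which RefSeq sequence (build GRCm38.p6) was matched; 6 of the 10 genes were matched and searched. Each sequence runs 5′ to 3′ on the gene's own strand, from 250 bases before to 50 bases after the transcription start. Capitals mark the SMAD box CAGAC and the GC-rich SMAD motif GGCGC, on either strand. The Tgfb1 promoter lies at chr7:25686752-25687051 (plus strand), that of Tgfb2 at chr1:186705940-186706239 (minus strand) and that of Ltbp4 at chr7:27337563-27337862 (minus strand).
Tgfb1: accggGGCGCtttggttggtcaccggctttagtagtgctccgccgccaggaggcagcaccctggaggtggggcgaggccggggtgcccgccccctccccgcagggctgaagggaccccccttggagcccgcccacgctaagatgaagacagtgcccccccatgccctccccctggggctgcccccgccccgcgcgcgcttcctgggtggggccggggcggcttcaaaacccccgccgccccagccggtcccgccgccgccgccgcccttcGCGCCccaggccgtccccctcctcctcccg
Tgfb2: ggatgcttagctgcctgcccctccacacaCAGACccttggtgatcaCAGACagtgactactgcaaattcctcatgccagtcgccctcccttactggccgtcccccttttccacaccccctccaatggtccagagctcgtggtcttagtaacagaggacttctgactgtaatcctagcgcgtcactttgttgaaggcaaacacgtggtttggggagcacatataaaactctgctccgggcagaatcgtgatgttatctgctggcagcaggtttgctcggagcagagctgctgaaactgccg
Ltbp4: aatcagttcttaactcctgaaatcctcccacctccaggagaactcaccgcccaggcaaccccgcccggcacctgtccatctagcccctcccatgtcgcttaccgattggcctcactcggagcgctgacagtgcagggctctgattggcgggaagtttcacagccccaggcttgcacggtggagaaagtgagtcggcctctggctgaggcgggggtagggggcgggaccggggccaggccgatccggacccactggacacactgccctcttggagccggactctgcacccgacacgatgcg

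The Tgfb2 promoter held 2 matches to the SMAD box, and those of Tgfb1 and Ltbp4 held 0. A match to CAGAC or its reverse GTCTG occurred in 49.5% of all 32544 promoters of the same length. The GC-rich motif GGCGC, or its reverse GCGCC, was matched 2 times in the Tgfb1 promoter, 0 times in the other printed sequences, and in 37.1% of all promoters. The palindrome GTCTAGAC, present in 0.215% of all promoters, was found in 0 of the 6 searched. Those 6 were the promoters of Tgfb1, Tgfb2, Tgfbr1, Tgfbr2, Smad3 and Ltbp4. The promoters of Tgfb3, Tgfbr3 and the feedback genes Smad7 and Skil were not searched. The Tgfb1 promoter was 77.0% G and C, that of Ltbp4 64.3% and that of Tgfb2 54.3%, against a median of 53% over all promoters. RefSeq lists 3 starts for Ltbp4; the one nearest the start of the deposited gene model, 80 bases away, is shown, and gene counts do not tell the starts apart. These matches are descriptions of letters and not of bound sites.

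Among the ligands, Tgfb1 was on average the most abundant per unit of length and Tgfb2 the scarcest, and none of the 3 passed the test. Tgfb1 (ENSMUSG00000002603, GRCm38 chromosome 7, 25687002 to 25705077) is the ligand of most lymphocytes and myeloid cells. It stood at 109, 163 and 142 CPM in KLRG1-positive and at 72.2, 107 and 107 CPM in KLRG1-negative libraries. The populations did not overlap, but the lowest KLRG1-positive library lay close to the highest KLRG1-negative library. The means were 138 ± 27.3 CPM in KLRG1-positive, against 95.4 ± 20.1 CPM in KLRG1-negative cells (SD, n = 3 each), a log2 fold change of 0.53 ± 0.25 (SE; 95% interval -0.08 to 1.13; edgeR quasi-likelihood adjusted p = 0.387).

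Tgfb3 (ENSMUSG00000021253, chromosome 12, 86056745 to 86079041), a ligand known from fibroblasts and from some T helper cells, stood at 22.2, 27.5 and 32.1 CPM in KLRG1-positive and at 11.1, 40.5 and 90.8 CPM in KLRG1-negative libraries. The KLRG1-positive libraries were close together, whereas the KLRG1-negative libraries spread on both sides of them. The log2 fold change was -0.80 ± 0.70 (SE; interval -2.49 to 0.89; edgeR adjusted p = 0.69), and it was 0.09 without KLRG1-negative library 3. That library also held the most B cell and fibroblast transcripts, with marker sums of 4655 and 11633 CPM, and the part of those cells in the Tgfb3 level was not tested. Exons of Tgfb3 share 163 and 257 bases with Gm37804 and Gm48008 on the other strand, and the counting used no strand, so reads there cannot be told apart; these genes had 15 counts and 1 count over all libraries.

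Tgfb2 (ENSMUSG00000039239, chromosome 1, 186622792 to 186705989), a ligand of epithelial and mesenchymal cells, was nearly undetected in KLRG1-positive cells. It had 0, 13 and 0 counts there, or 0, 0.694 and 0 CPM, against 2.23, 7.73 and 7.06 CPM in KLRG1-negative libraries. A count of 0 allows up to 3 counts, which is 0.169 CPM in KLRG1-positive library 1 and 0.133 CPM in library 3, for counting error only. All KLRG1-positive libraries lay below all KLRG1-negative ones, and the log2 fold change of -4.59 ± 1.74 did not pass (SE; interval -8.80 to -0.39; edgeR adjusted p = 0.274; unadjusted p = 0.0367). DESeq2 with the replicate block called it (log2 fold change -6.68, adjusted p = 0.00042), while DESeq2 without the block (adjusted p = 0.0547) and edgeR with it (0.19) did not. The size rests on single libraries: it was -9.89 without KLRG1-positive library 2, which held all 13 counts, and -3.88 without KLRG1-positive library 3.

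Per unit of length, the 3 ligands made up different shares of ligand transcripts in the KLRG1-negative libraries and nearly the same shares in the KLRG1-positive ones. In TPM (counts per kilobase of gene model, scaled to a common total per library), Tgfb1 made up 76.6, 79.7 and 74.8% of the 3 ligands in KLRG1-positive libraries and 79.6, 61.5 and 43.1% in KLRG1-negative libraries. Tgfb3 made up 23.4, 20.0 and 25.2% in KLRG1-positive and 18.2, 34.7 and 54.5% in KLRG1-negative libraries, so that in KLRG1-negative library 3 it exceeded Tgfb1. Tgfb2 was at most 0.296% of the 3 in KLRG1-positive and 2.14 to 3.86% in KLRG1-negative libraries.

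**Figure D2:**
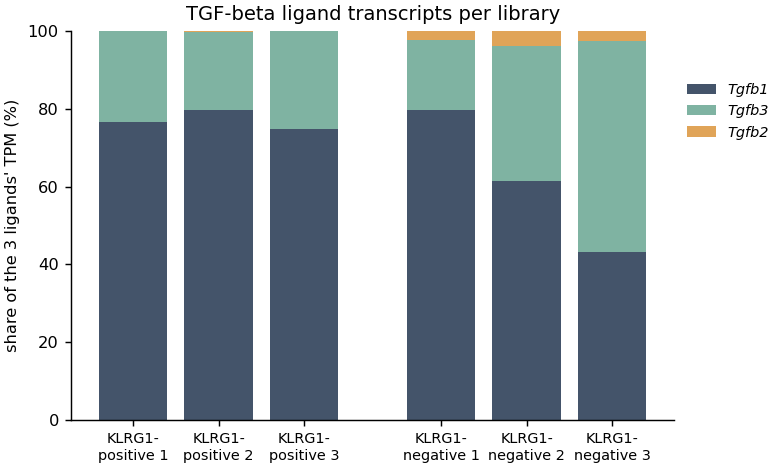
Share of each ligand in the summed TPM of Tgfb1, Tgfb3 and Tgfb2, in percent, in the 3 KLRG1-positive (left) and 3 KLRG1-negative (right) libraries. Tgfb1 makes up 74.8 to 79.7% in KLRG1-positive libraries and 43.1 to 79.6% in KLRG1-negative libraries.

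Ltbp4 (ENSMUSG00000040488, chromosome 7, 27305136 to 27337692, minus strand), which encodes a matrix protein that binds latent TGF-beta and supports elastic fibres in lung, was the 1 gene of the 10 that passed the edgeR test. It stood at 1.18, 3.26 and 2.89 CPM in KLRG1-positive and at 30.9, 178 and 168 CPM in KLRG1-negative libraries. Every KLRG1-positive library lay far below every KLRG1-negative library, and KLRG1-negative library 1 was well below the other KLRG1-negative libraries. The means were 2.44 ± 1.11 CPM in KLRG1-positive, against 125 ± 82.0 CPM in KLRG1-negative cells (SD, n = 3 each), a 51.3-fold lower level in KLRG1-positive cells. Its log2 fold change was -5.68 ± 0.85 (SE; interval -7.73 to -3.63; edgeR adjusted p = 0.0449, and 0.0422 with the replicate block). In the same libraries the sum of the 10 fibroblast markers was 226-fold lower in KLRG1-positive cells, at 34.0 against 7702 CPM on average, and its part in the Ltbp4 result was not tested. The call held without KLRG1-negative library 1 (edgeR adjusted p = 0.029), but not without KLRG1-negative library 2 or 3 (0.106 and 0.127) or KLRG1-positive library 1, 2 or 3 (0.077, 0.178 and 0.173), with log2 fold changes between -5.20 and -6.13 in all of these fits.

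Of the receptors, Tgfbr2 was abundant in both populations and Tgfbr3 stood far higher in the KLRG1-negative libraries, and none of the 3 passed the test. Tgfbr2 (ENSMUSG00000032440, chromosome 9, 116084293 to 116175360), the ligand-binding kinase, stood at 593, 553 and 449 CPM in KLRG1-positive and at 543, 343 and 479 CPM in KLRG1-negative libraries. The populations overlapped, and the means of 532 ± 74.4 CPM in KLRG1-positive, against 455 ± 102 CPM in KLRG1-negative cells (SD, n = 3 each) differed by a log2 fold change of 0.22 ± 0.23 (SE; edgeR adjusted p = 0.744). The interval of that difference, -0.32 to 0.77, leaves out changes larger than those bounds.

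Tgfbr1 (ENSMUSG00000007613, chromosome 4, 47353222 to 47414931), the kinase that phosphorylates SMAD2 and SMAD3, stood at 41.4, 19.0 and 27.8 CPM in KLRG1-positive and at 54.3, 22.7 and 53.1 CPM in KLRG1-negative libraries. The populations overlapped, and in each of them the library numbered 2 was the lowest. The log2 fold change was -0.56 ± 0.45 (SE; interval -1.65 to 0.54; edgeR adjusted p = 0.659). In TPM, Tgfbr2 exceeded Tgfbr1 in every library, by 11.4, 23.2 and 12.9 times in KLRG1-positive and by 7.99, 12.1 and 7.21 times in KLRG1-negative libraries.

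Tgfbr3 (ENSMUSG00000029287, chromosome 5, 107106570 to 107289629), the co-receptor betaglycan, which presents ligand to TGFBR2 and is needed most for the product of Tgfb2, stood at 3.77, 0 and 1.60 CPM in KLRG1-positive and at 71.0, 35.0 and 72.2 CPM in KLRG1-negative libraries. The 0 in KLRG1-positive library 2 allows up to 0.160 CPM. The populations were far apart, with means of 1.79 ± 1.89 CPM in KLRG1-positive, against 59.4 ± 21.1 CPM in KLRG1-negative cells (SD, n = 3 each), and the log2 fold change was -5.05 ± 1.35 (SE; interval -8.32 to -1.79). It did not pass the edgeR quasi-likelihood test (adjusted p = 0.13, and 0.128 with the replicate block), whereas DESeq2 gave an adjusted p of 0.000434. Fibroblast and T cell marker sums were 226- and 7.71-fold lower on average in KLRG1-positive libraries, and their part in this result was not tested. The T cell sum includes Cd3g, which overlapped. The 8 T cell markers without overlap were 10.2- to 28.4-fold lower.

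**Figure D3:**
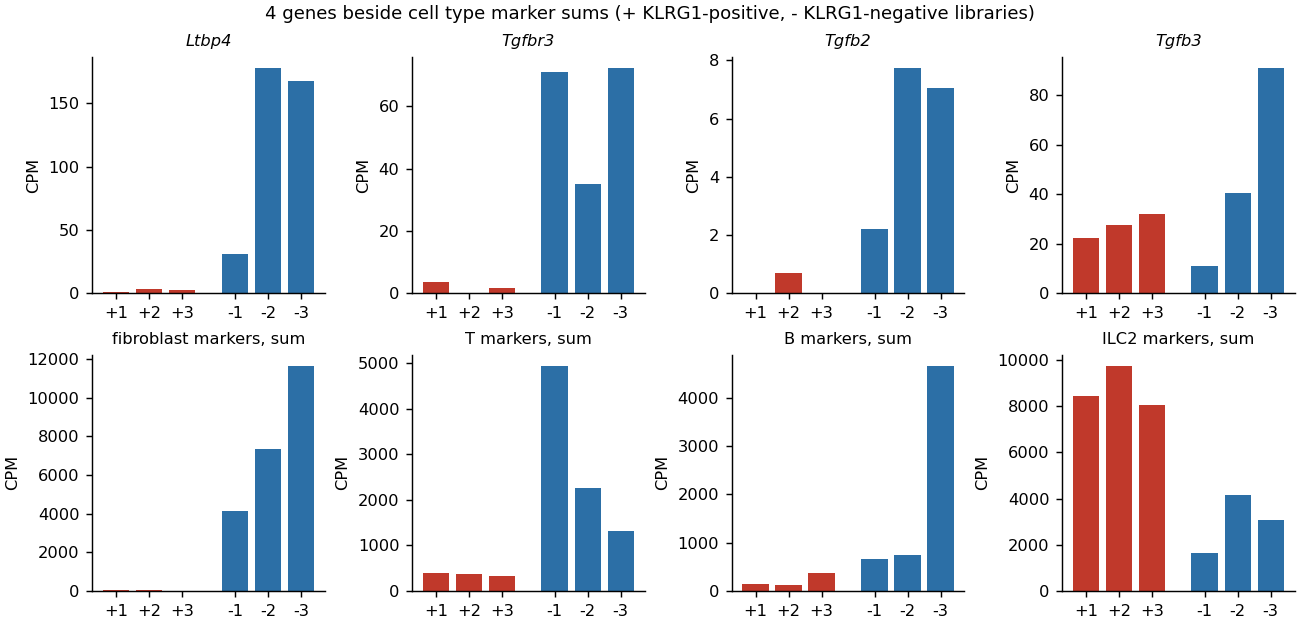
CPM of Ltbp4, Tgfbr3, Tgfb2 and Tgfb3 (upper row) and summed CPM of fibroblast, T cell, B cell and ILC2 markers (lower row) in each KLRG1-positive (red, left) and KLRG1-negative (blue, right) library; each bar is 1 library. The fibroblast sum is 18.6 to 52.1 CPM in KLRG1-positive, against 4150 to 11633 CPM in KLRG1-negative libraries, and Tgfb3 is the 1 gene of the 4 whose populations overlap. The ILC2 sum includes Klrg1.

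Smad3 (ENSMUSG00000032402, chromosome 9, 63646767 to 63757994), the transcription factor that carries the signal to the nucleus, differed more between library numbers than between populations. It stood at 41.0, 154 and 129 CPM in KLRG1-positive and at 53.5, 120 and 98.7 CPM in KLRG1-negative libraries. In both populations library 1 was the lowest and library 2 the highest, and the populations overlapped. The log2 fold change was 0.25 ± 0.54 (SE; interval -1.05 to 1.56; edgeR adjusted p = 0.9, and 0.819 with the replicate block), and it was -0.01 without KLRG1-negative library 1 and -0.07 without KLRG1-positive library 2.

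The feedback genes overlapped between the populations. Skil (ENSMUSG00000027660, chromosome 3, 31095058 to 31122577) stood at 142, 122 and 113 CPM in KLRG1-positive and at 94.5, 113 and 120 CPM in KLRG1-negative libraries. It was among the most even of the 10 genes, with a log2 fold change of 0.20 ± 0.19 (SE; interval -0.25 to 0.65; edgeR adjusted p = 0.719). Smad7 (ENSMUSG00000025880, chromosome 18, 75367529 to 75395935) stood at 5.57, 9.29 and 6.97 CPM in KLRG1-positive and at 8.18, 22.8 and 5.77 CPM in KLRG1-negative libraries, where library 2 alone was high. Its log2 fold change was -0.75 ± 0.61 (SE; interval -2.24 to 0.73; edgeR adjusted p = 0.663), and it was 0.16 without KLRG1-negative library 2.

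**Figure D4:**
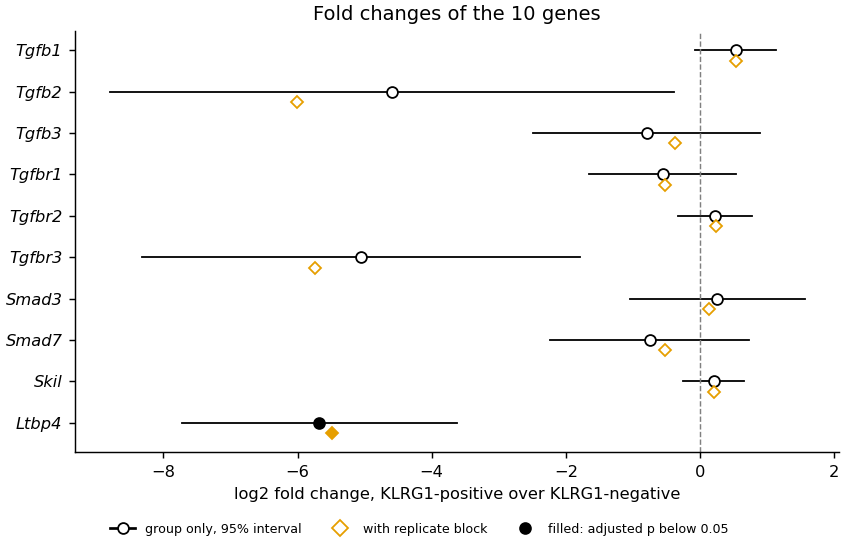
Log2 fold change of each gene, KLRG1-positive over KLRG1-negative, with its 95% interval from the fit on population alone (circles) and the value with the replicate block (diamonds); filled symbols have an adjusted p below 0.05. Ltbp4 is the 1 filled gene in both fits, and the intervals of Tgfb2 and Tgfbr3 are wide, from -8.80 to -0.39 and from -8.32 to -1.79.

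Ranked by level in TPM, Tgfbr2 was the highest of the 10 genes in both populations, at 198 ± 38.9 TPM in KLRG1-positive and 157 ± 25.1 TPM in KLRG1-negative cells (SD, n = 3 each), and in each population it lay above the next gene in all 3 libraries. In KLRG1-positive cells it was followed by Tgfb1 (82.3 TPM), Smad3 (58.2 TPM), Skil (39.4 TPM), Tgfb3 (24.2 TPM), Tgfbr1 (13.7 TPM), Smad7 (4.86 TPM), Ltbp4 (1.13 TPM), Tgfbr3 (0.844 TPM) and Tgfb2 (0.122 TPM). The ranges of Tgfb1 and Smad3, of Smad3 and Skil, of Ltbp4 and Tgfbr3 and of Tgfbr3 and Tgfb2 overlapped across libraries; within libraries, Tgfb1 lay above Smad3 in all 3, and each of the other pairs kept its order in 2 of 3. In KLRG1-negative cells Ltbp4 stood in the second place with 56.5 TPM, followed by Tgfb1 (54.5 TPM), Smad3 (47.7 TPM), Tgfb3 (39.4 TPM), Skil (32.4 TPM), Tgfbr3 (25.4 TPM), Tgfbr1 (18.5 TPM), Smad7 (8.16 TPM) and Tgfb2 (2.85 TPM), and every pair of neighbours below Tgfbr2 overlapped across libraries. Within those libraries, Tgfbr3 lay above Tgfbr1 and Smad7 above Tgfb2 in all 3, and each of the other overlapping pairs kept its order in 2 of 3. The coefficient of variation between KLRG1-negative libraries was 16.0% for Skil and 16.0% for Tgfbr2 but 84.9% for Smad7, 78.5% for Tgfb3 and 68.5% for Ltbp4.

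Other genes of the pathway came from 6 lists with 75 genes in all, of which 57 could be tested. KLRG1-positive cells were lower for 4, higher for 0, and 53 did not pass (edgeR quasi-likelihood test), beside 1.21% lower and 0.125% higher among all tested genes. An unadjusted p below 0.05 was reached by 15 lower and 4 higher genes, beside 11.5% and 4.19% of all tested genes, and DESeq2 called 13 lower and 4 higher, beside 9.06% and 2.28%. With the replicate block 2 were lower, beside 0.349% of all tested genes. Of the 16 genes that hold latent TGF-beta or release it, 13 were tested, 2 were lower and 0 higher, and their median log2 fold change was -1.28. The 2 were Fbn1 and Mmp14, whose products are the microfibril protein fibrillin-1, to which latent complexes are tethered, and a membrane-bound matrix metalloprotease. Fbn1 (chromosome 2, 125300594 to 125507993) stood at 0.225, 0.374 and 0.133 CPM in KLRG1-positive and at 58.4, 69.2 and 108 CPM in KLRG1-negative libraries (log2 fold change -8.31 ± 0.54 SE, edgeR adjusted p = 0.0102, and 0.0422 with the block). All its KLRG1-positive values lay under the filter of 0.491 CPM, so that it entered the test through the KLRG1-negative libraries alone. Mmp14 (chromosome 14, 54431612 to 54445364) stood at 0.619, 1.44 and 2.26 CPM in KLRG1-positive and at 35.4, 82.6 and 78.9 CPM in KLRG1-negative libraries (-5.49 ± 0.65, edgeR adjusted p = 0.0295, and 0.0409 with the block). Leaving out KLRG1-negative library 2 or 3 or KLRG1-positive library 2 or 3 ended both calls, with edgeR adjusted p of 0.0519, 0.0612, 0.0713 and 0.0628 for Fbn1 and of 0.0912, 0.11, 0.152 and 0.104 for Mmp14. Both are genes that fibroblasts express, and the part of the fibroblast transcripts was not tested.

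Other genes of the list did not pass the edgeR test, and those named here were chosen after their values were seen. Itgb3, the beta chain of an integrin that binds latent TGF-beta, stood at 722, 756 and 603 CPM in KLRG1-positive and at 89.3, 210 and 201 CPM in KLRG1-negative libraries. The populations did not overlap. The log2 fold change of Itgb3, 2.06 ± 0.35 (SE), just missed the threshold in edgeR (adjusted p = 0.0566, and 0.0987 with the block). DESeq2 called it (adjusted p = 5.74e-06). Nrros, whose product anchors latent TGF-beta on the surface of myeloid cells, stood at 346, 438 and 360 CPM in KLRG1-positive and at 212, 173 and 259 CPM in KLRG1-negative libraries (0.83 ± 0.21, edgeR adjusted p = 0.115, DESeq2 adjusted p = 0.0127). Lrrc32, which encodes GARP, the related anchor of regulatory T cells, stood at 2.08, 0.0534 and 0.622 CPM in KLRG1-positive and at 13.2, 5.13 and 8.12 CPM in KLRG1-negative libraries (-3.26 ± 1.17, edgeR adjusted p = 0.248, DESeq2 adjusted p = 0.0307). Its value in KLRG1-positive library 2 lay under the filter of 0.491 CPM. Lrrc32 therefore entered the test through the KLRG1-negative libraries alone. Furin, the protease that cuts the TGF-beta precursor, stood at 290, 296 and 343 CPM in KLRG1-positive and at 34.1, 196 and 155 CPM in KLRG1-negative libraries (1.27 ± 0.59, edgeR adjusted p = 0.377, DESeq2 adjusted p = 0.198). ILC2 marker sums, Klrg1 included, were 8069 to 9739 CPM in KLRG1-positive, against 1648 to 4168 CPM in KLRG1-negative libraries. Their part in the levels of Itgb3, Nrros and Furin was not tested.

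Of 14 known target genes of TGF-beta or related signals, 12 were tested. By edgeR 1 was lower, 0 were higher and 11 did not pass, beside 1.21% lower and 0.125% higher among all tested genes. The median log2 fold change was -2.09, beside -0.05 over all tested genes. An unadjusted edgeR p below 0.05 was reached by 6 lower and 1 higher, beside 11.5% and 4.19% of all tested genes. DESeq2 called 6 lower and 1 higher, beside 9.06% and 2.28%. The 1 gene that edgeR called was Itgae, which encodes the CD103 integrin chain of tissue-resident T cells and some ILCs. It stood at 61.8, 47.2 and 55.7 CPM in KLRG1-positive and at 174, 294 and 171 CPM in KLRG1-negative libraries, without overlap. Its log2 fold change was -1.96 ± 0.28 (SE; interval -2.63 to -1.28; edgeR adjusted p = 0.043), and with the replicate block it did not pass (0.0945). The call was lost without any 1 of the 6 libraries, with adjusted p between 0.0646 and 0.186. Summed T cell markers, 319 to 403 CPM in KLRG1-positive, against 1306 to 4942 CPM in KLRG1-negative libraries, moved the same way, and their part was not tested. Matrix genes of the list, also named after their values were seen, lay lower in every KLRG1-positive library without passing the edgeR test. Postn, which encodes periostin, stood at 9.01, 0.214 and 0.133 CPM in KLRG1-positive and at 633, 405 and 918 CPM in KLRG1-negative libraries (-7.72 ± 1.75, edgeR adjusted p = 0.0916). Its values in KLRG1-positive libraries 2 and 3 lay under the filter of 0.491 CPM. Postn therefore entered the test through the KLRG1-negative libraries alone. Fn1, which encodes fibronectin, stood at 98.5, 107 and 16.1 CPM in KLRG1-positive and at 907, 475 and 896 CPM in KLRG1-negative libraries (-3.36 ± 0.74, edgeR adjusted p = 0.086). Ccn2 (-5.06 ± 1.31, edgeR adjusted p = 0.124) and Tgfbi (-3.58 ± 0.75, 0.0786) did not overlap between the populations either. Ccn2, at 0 CPM in KLRG1-positive library 3, also entered the test through the KLRG1-negative libraries alone. DESeq2, run after the same filter, called Postn, Fn1, Ccn2 and Tgfbi. The sum of fibroblast markers was 226-fold lower in KLRG1-positive libraries, and its part was not tested. The Id genes of the list differed in direction, and none passed the edgeR test. Id2, the ILC regulator, stood at 1636, 1594 and 1557 CPM in KLRG1-positive and at 453, 954 and 784 CPM in KLRG1-negative libraries (1.13 ± 0.29, edgeR adjusted p = 0.117). Id3, a relative that T and B cells use, ranged over 1.82 to 10.3 CPM in KLRG1-positive, against 60.1 to 91.8 CPM in KLRG1-negative libraries (-4.07 ± 0.76, edgeR adjusted p = 0.065). Id1 ranged over 0.133 to 2.59 CPM in KLRG1-positive, against 4.34 to 5.96 CPM in KLRG1-negative libraries (-2.23 ± 1.04, edgeR adjusted p = 0.384). Its lowest value, in KLRG1-positive library 3, lay under the filter of 0.491 CPM, so Id1 entered the test through the KLRG1-negative libraries alone. By DESeq2 the adjusted p was 0.00872 for Id2, 5.05e-07 for Id3 and 0.196 for Id1.

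Of 6 other SMAD genes 4 were tested and none passed the edgeR quasi-likelihood test. Of 13 negative regulators all 13 were tested, none passed and all 13 overlapped between the populations. Most of all tested genes overlapped too, with 9.46% higher and 15.2% lower without overlap. An unadjusted edgeR p below 0.05 was reached by 1 of the 4 SMAD genes, higher, and by 0 of the 13 regulators. DESeq2 called 1 and 0. Among all tested genes, edgeR called 1.21% lower and 0.125% higher. At that unadjusted p, 11.5% were lower and 4.19% higher, and DESeq2 called 9.06% lower and 2.28% higher. Smad2, the partner of SMAD3 downstream of TGFBR1, stood at 128, 123 and 133 CPM in KLRG1-positive and at 92.9, 80.9 and 78.9 CPM in KLRG1-negative libraries (log2 fold change 0.60 ± 0.17 SE, edgeR adjusted p = 0.14; DESeq2 adjusted p = 0.00845). Its populations did not overlap, unlike those of Smad3. Smad1, which serves the bone morphogenetic protein (BMP) branch, stood at 5.35, 49.6 and 45.2 CPM in KLRG1-positive and at 15.7, 64.8 and 27.5 CPM in KLRG1-negative libraries, again lowest in the libraries numbered 1. Fkbp1a, whose product FKBP12 holds TGFBR1 inactive, averaged 231 ± 40.5 CPM in KLRG1-positive, against 237 ± 31.7 CPM in KLRG1-negative cells (SD, n = 3 each; log2 fold change -0.04 ± 0.20 SE, interval -0.52 to 0.44, edgeR adjusted p = 0.969). Ldlrad4, a membrane inhibitor of SMAD activation, averaged 54.7 ± 7.75 CPM in KLRG1-positive, against 47.6 ± 26.3 CPM in KLRG1-negative cells (0.20 ± 0.41, edgeR adjusted p = 0.896). The signs for Smad1, Fkbp1a and Ldlrad4 changed when single libraries were left out.

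**Figure D5:**
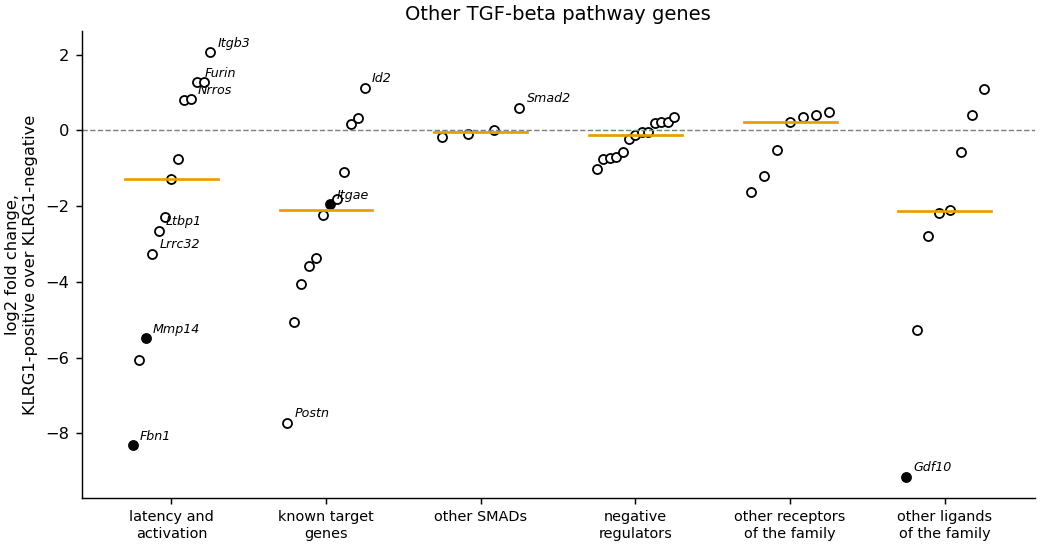
Log2 fold change, KLRG1-positive over KLRG1-negative, of the 57 tested genes on the 6 other pathway lists; each circle is 1 gene, filled where the edgeR adjusted p is below 0.05, and orange lines are list medians. The 4 filled genes, Fbn1, Mmp14, Itgae and Gdf10, are all below 0, and the 13 negative regulators, none filled, span -1.02 to 0.35.

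For each of the 10 genes, the protein-coding genes with the most similar profile over the 6 libraries were found by the root mean square distance between log2 CPM values centred on each gene's mean. Ltbp4 was closest to Gm8113 (distance 0.47), Mmp14 (0.49) and Cygb (0.57). Tgfbr3 was closest to Prss23 (0.60), Angptl2 (0.63) and Flrt2 (0.68), and Tgfb2 to Ndn (0.47), Rab34 (0.61) and Lrp1 (0.74). Tgfbr2 lay 0.04 from Nbr1, Tgfb1 0.05 from Ppdpf, and Skil 0.05 from Spryd3. The log2 values were centred but not scaled, so genes that vary little lie closer to their neighbours by construction. Distances of different genes are therefore not compared. Tgfb3 was closest to Cd83 (0.26), Irf5 (0.29) and Pkig (0.31). In KLRG1-negative library 3 these stood at 175, 244 and 84.1 CPM, the highest of the 6 libraries. Cd83 and Irf5 are known from B cells and other antigen-presenting cells. The B cell marker sum was 658 CPM in KLRG1-negative library 1, against 138 CPM in KLRG1-positive library 1. Tgfb3 stood at 11.1 CPM in the former, the lowest of the 6 libraries, and at 22.2 CPM in the latter. The part of B cells was not tested. Smad3 was closest to Rev1 (0.12), Larp4b (0.13) and Lats1 (0.13), and Smad7 to Tmem245 (0.14). None of the named neighbours was itself among the 10 genes.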

How the data were processed

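Per the labels' protocols, cDNA was made with the SMARTer Ultra Low Input kit, amplified by PCR and tagged with Nextera XT, which keeps no strand. The deposited values are raw counts of reads per gene that the authors made with featureCounts 1.5.2 on an annotation whose name gives GRCm38 and Ensembl release 90, per the file headers, without strand, counting reads singly and leaving out multi-mapping reads (26.3 to 32.3% of alignments), so genes with close copies are understated. The submitters' processing notes also name bcl2fastq and STAR 2.4.1d. The gene length, another deposited column, entered TPM only. Of 52636 identifiers, 52489 were found in GENCODE release M21, which gave the symbols, with identical gene bounds for 95.2% of them; printed coordinates come from the deposited table.

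Differences were tested with edgeR 4.0.16 in R 4.3.3 (quasi-likelihood F test, robust dispersion, TMM factors, filterByExpr, 15197 genes kept) on 3 libraries per population, with two-sided p-values adjusted by Benjamini-Hochberg over all tested genes and a threshold of 0.05. The biological coefficient of variation was 0.631. Standard errors and 95% intervals of log2 fold changes were derived from the F statistic. CPM were divided by TMM-scaled library sizes. Floors of 3 counts for a count of 0 are for counting error alone, because reads from amplified cDNA do not each stand for a molecule. Alternatives were DESeq2 1.42.0, other scalings, no filter, a replicate block and leaving out libraries.

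Whether the labels' replicate numbers pair the libraries was checked through deviations from the population means. Over genes, these correlated at 0.38, 0.34 and 0.19 between same-numbered libraries. Between libraries of different numbers the correlations ran from -0.32 to 0.06. Deviations cancel within each population, which pushes the latter towards negative values. The numbers were read as pairing the libraries, from the data and not from the design. The edgeR calls, standard errors and intervals nevertheless come from the fit on population alone, unless the block is named.

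The members, lists and alternatives were chosen with earlier results of these data known, so counts on the lists are descriptions. Named genes were the 10 members, up to 2 higher and 2 lower genes per list past the threshold, or the 2 most abundant where none passed. Likeness was searched among protein-coding genes with a mean of at least 10 CPM, with log2 values after adding a prior count of 2. Other named genes were chosen after their values were seen.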

Additional observations from a re-analysis of the deposited data

How the results depend on the processing

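No setting called a gene of the 10 higher. Over all genes the edgeR fit on population alone called 19 higher and 184 lower; without the low-count filter it called 37 and 282, DESeq2 called 346 and 1377, the replicate block 0 and 53, and DESeq2 with the block 609 and 1697. Without both libraries numbered 1, 2 or 3, 3, 0 and 0 genes were called higher, and for numbers 2 and 3, 0 were called lower. Leaving out 1 library gave 0 to 5 higher and 0 to 159 lower genes. Of the 10 genes, 1 was called lower in that fit and with the block, 2 with DESeq2, 3 with DESeq2 and the block (Ltbp4, Tgfbr3 and Tgfb2), 0 without both libraries numbered 2 or 3, and 0 to 1 without any 1 library. Of the other pathway genes, that fit called 0 higher and 4 lower; no filter called 1 higher, DESeq2 4 higher and 13 lower, the block 2 lower, DESeq2 with the block 6 higher and 16 lower, the fits without both libraries numbered 2 or 3 called 0 lower, that without both numbered 1 called 6 lower, and leaving out 1 library gave 0 to 1 higher and 0 to 5 lower. Beside the calls given with the results, the block changed no call of a named gene. The log2 fold changes of 7 named genes, none of them called, changed sign in some settings. Over the fits without 1 library they ran from -1.26 to 0.0894 for Tgfb3, -0.0749 to 0.66 for Smad3, -1.08 to 0.16 for Smad7, -0.49 to 0.74 for Smad1, -0.0683 to 0.0881 for Fkbp1a, -0.0476 to 0.86 for Ldlrad4 and -1.22 to 0.00909 for Eng; Tgfb3 was at 0.0327 without both libraries numbered 3, and Fkbp1a at 0.0644 without the filter. The cause was not tested. The alternatives without both libraries of a number, and DESeq2 with the block, were chosen after seeing the data. Counts of 0 to 67 per library for Tgfb2 and Tgfbr3 in KLRG1-positive cells limit their fold changes.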

Other observations

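The other ligands and receptors of the TGF-beta superfamily add 26 genes. Of 15 other ligands, 8 could be tested, of which 1 passed the edgeR test as lower in KLRG1-positive cells, 0 as higher, and 7 did not pass. Among all tested genes, 1.21% were called lower and 0.125% higher. At an unadjusted edgeR p below 0.05, 3 of the 8 lay lower and 0 higher, beside 11.5% and 4.19% of all tested genes. DESeq2 called 2 lower and 0 higher, beside 9.06% and 2.28%. The 3 were Gdf10, Bmp4 and Lefty1, and the 2 were Gdf10 and Bmp4. In KLRG1-positive libraries Bmp4 reached at most 0.450 CPM and Lefty1 at most 0.444 CPM, under the filter of 0.491 CPM. Like Gdf10, both were tested through the KLRG1-negative libraries alone. These counts are therefore not a like comparison with the shares of all tested genes. The 1 ligand that edgeR called was Gdf10, which encodes BMP3B, a secreted factor of mesenchymal cells. All its KLRG1-positive values lay under the filter of 0.491 CPM, so that it was tested through the KLRG1-negative libraries alone. It had 3 counts over the KLRG1-positive libraries and 2188 over the KLRG1-negative ones, where it stood at 8.62, 36.9 and 52.7 CPM. Over the pooled counts, the level in KLRG1-negative libraries was 671 times that in KLRG1-positive libraries, with a 95% interval of 229 to 3256 (exact conditional binomial) that covers counting error only and not the spread between libraries. Its edgeR quasi-likelihood adjusted p was 0.0366, and 0.068 with the replicate block, in which it did not pass; it also missed the threshold without KLRG1-negative library 2 or 3 or any 1 KLRG1-positive library (0.0649 to 0.152). Fibroblast markers summed to 18.6 to 52.1 CPM in KLRG1-positive, against 4150 to 11633 CPM in KLRG1-negative libraries, and their part was not tested. Bmp7, a BMP ligand named after its values were seen, was the most abundant of the 15. It stood at 36.0, 158 and 118 CPM in KLRG1-positive and at 7.62, 104 and 33.9 CPM in KLRG1-negative libraries (log2 fold change 1.10 ± 0.96 SE, edgeR adjusted p = 0.69), so that in both populations library 1 was the lowest and library 2 the highest, the order that Smad3 showed.

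Of 11 other receptors, 7 could be tested and none passed (edgeR quasi-likelihood; 0 at an unadjusted p below 0.05 and 0 by DESeq2). The shares of all tested genes, lower and higher, were 1.21% and 0.125% by edgeR. They were 11.5% and 4.19% at that unadjusted p, and 9.06% and 2.28% by DESeq2. Endoglin (Eng) and Acvrl1, which together serve BMP signals in endothelium, had the highest means over all 6 libraries. Eng stood at 37.0, 13.6 and 11.6 CPM in KLRG1-positive and at 47.8, 19.4 and 22.1 CPM in KLRG1-negative libraries. Acvrl1 stood at 30.9, 5.55 and 0.222 CPM in KLRG1-positive and at 63.0, 24.5 and 25.7 CPM in KLRG1-negative libraries. In KLRG1-positive library 3 Acvrl1 lay under the filter of 0.491 CPM, so it entered the test through the KLRG1-negative libraries alone. The sign for Eng changed without KLRG1-negative library 1. Both genes were highest in the library numbered 1 of each population. The summed markers of several other cell types were also highest there: endothelial (282 CPM in KLRG1-positive library 1 and 465 CPM in KLRG1-negative library 1), epithelial (393 and 450 CPM), T cell (403 and 4942 CPM) and natural killer and ILC1 (435 and 1576 CPM). Their part in the levels of Eng and Acvrl1 was not tested.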
